A study of Mus musculus with 6 samples.

Results

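The genes of the T cell receptor complex and its closest partners were followed in RNA-Seq libraries of mouse dorsal neck skin. The 10 genes were chosen by name and matched by Ensembl identifier in GENCODE release M21: the CD3 chain genes *Cd3e*, *Cd3d*, *Cd3g* and *Cd247*, the coreceptor genes *Cd4* and *Cd8a*, the constant genes *Trac* and *Trdc*, the kinase gene *Zap70* and the adhesion receptor gene *Cd2*. A row was found for 9 of the 10 among the 26579 genes of the count table, and *Trdc* was not analysed here. Of these 9, 5 reached the filter of 1 CPM (the count divided by the total of its library, times 1e6) in 3 or more libraries and were among the 15102 genes tested.

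The libraries came from 3 wild type female mice and 3 female YAP2-5SA-∆C littermates at postnatal day 33, when the transgenic mice were at the early stage of their visible skin phenotype. The transgene, a YAP mutant whose activity is mildly raised, is switched on in the basal layer of the epidermis, in cells that make Keratin5 and Keratin14, and T cells are not described as expressing it. Whole-skin punches were used, and they hold epidermis, dermis, fat and muscle as well as immune cells. The labels do not give the strain background.

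The T cell receptor is a pair of variable chains, alpha with beta or gamma with delta, that recognises antigen but cannot signal alone. The CD3 chains and the zeta chain encoded by *Cd247* bring the pair to the surface and carry the tyrosine motifs to which the kinase ZAP70 binds, and CD4 or CD8 holds the receptor on MHC molecules. Mouse epidermis is known for resident dendritic epidermal T cells with a gamma-delta receptor, while alpha-beta T cells, regulatory T cells included, lie mostly in the dermis and around hair follicles.

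The total count per library ran from 11225705 to 19505036 in wild type and from 15942928 to 17482441 in YAP2-5SA-∆C skin, and after TMM scaling of these totals, which all CPM values below use, 1 CPM was worth 10.5 to 19.1 counts. The libraries are called WT1 to WT3 and TG1 to TG3 by genotype and replicate number, and WT3 was the shallowest. TG2 stood apart within its group: its root-mean-square difference in log2 CPM over the tested genes was 0.493 from TG1 and 0.527 from TG3, against 0.309 between those 2 and 0.277 to 0.393 between wild type libraries. Because the receptor genes had few counts, each is given below as raw counts in every library, in the order WT1, WT2 and WT3 for wild type and TG1, TG2 and TG3 for YAP2-5SA-∆C skin.

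The CD3 chain genes *Cd3g*, *Cd3d* and *Cd3e* lie side by side on chromosome 9, within 40056 bases. *Cd3g* and *Cd3d* are transcribed away from each other from starts 1355 bases apart. The 100 bases before each start are shown because these neighbours share one locus and encode subunits of one complex. They are given 5′ to 3′ on the strand of the gene, from RefSeq on GRCm38.p6, and capitals mark the letters CTTCCT or AGGAAG, the core bound by ETS family factors, on either strand.
Cd3g, chr9:44980432-44980531, minus strand: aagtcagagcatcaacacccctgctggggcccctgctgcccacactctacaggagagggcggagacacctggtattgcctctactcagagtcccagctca
Cd3d, chr9:44981686-44981785, plus strand: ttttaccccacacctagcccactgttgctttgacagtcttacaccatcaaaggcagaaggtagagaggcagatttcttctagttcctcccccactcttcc
Cd3e, chr9:45009612-45009711, minus strand: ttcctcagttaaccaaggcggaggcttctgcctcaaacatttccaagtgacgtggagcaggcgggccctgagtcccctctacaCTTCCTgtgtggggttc
Within 250 bases before the start, *Cd3e* held the ETS core at positions -224 and -17, *Cd3d* at -198, and *Cd3g* had no match. The annotated start of *Cd3e* in GENCODE lies 16 bases further upstream than that in RefSeq. Of 32851 promoters of that length, 29.5% held the ETS core. The letters CATTCC or GGAATG, the core bound by the TEAD partners of YAP, were in none of these 3 windows and in 12.6% of all promoters. Among the other matched genes, *Zap70* held the TEAD core at -178 from one of its 3 RefSeq starts and the ETS core at -171 and -38 from that start and at -134 from another, *Cd247* held the ETS core at -57, and *Cd8a* held neither. A match is a run of letters and not a measured binding site.

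Transcripts of the CD3 complex were detected in all 6 libraries, and the ranges of the genotypes overlapped. The genes *Cd3g*, *Cd3d* and *Cd247* had log2 fold changes near 0 with wide intervals, and *Cd3e* had a higher mean in YAP2-5SA-∆C skin that did not pass the test. In whole skin, a difference in the number of T cells and one in RNA per T cell cannot be told apart. With the quasi-likelihood test of edgeR, none of the 5 tested genes passed a false discovery rate (FDR) threshold of 0.05, which 1.91% of all tested genes did. At an unadjusted p-value below 0.05 the test had 1 of the 5, *Cd2*, against 26.3% of all genes. The likelihood-ratio test of the study's methods called 1 of the 5, again *Cd2*, and 10.4% of all genes, whereas voom and DESeq2 called 0 of the 5.

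*Cd3e* (ENSMUSG00000032093, chromosome 9 of GRCm38 from 44998740 to 45009627) encodes CD3 epsilon, which pairs with both the gamma and the delta chain of CD3. It had 31, 16 and 15 counts in wild type and 30, 35 and 37 in YAP2-5SA-∆C skin. WT1 lay slightly above TG1 after scaling, so the groups overlapped. The means were 1.32 ± 0.442 and 2.01 ± 0.322 CPM (SD, n = 3), a log2 fold change of 0.61 with a standard error of 0.29, a 95% interval from -0.08 to 1.31 and a quasi-likelihood FDR of 0.235. Leaving out WT2 took the log2 fold change to 0.34. An antisense gene, *Gm48719*, covers 3.309% of its exon bases.

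*Cd3g* (ENSMUSG00000002033, chromosome 9 from 44969572 to 44980431), which encodes CD3 gamma, had 55, 51 and 28 counts in wild type and 42, 67 and 53 in YAP2-5SA-∆C skin. TG1 was the lowest of all 6 libraries in CPM and TG2 and TG3 were the highest. The log2 fold change was 0.19 with a standard error of 0.22 and a 95% interval from -0.32 to 0.70 (quasi-likelihood FDR 0.607). It was 0.03 when TG2 was left out and 0.40 when TG1 was.

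*Cd3d* (ENSMUSG00000032094, chromosome 9 from 44981786 to 44987339), which encodes CD3 delta, stayed below the filter. Its counts were 16, 11 and 1 in wild type and 10, 14 and 10 in YAP2-5SA-∆C skin. The single count was in the shallowest library, and the other 5 libraries covered one range. Over the summed counts, 28 against 34, the YAP2-5SA-∆C to wild type ratio was 1.14 with an exact 95% interval from 0.67 to 1.95. This ratio and those of summed counts below are adjusted for the TMM-scaled library totals, and their intervals cover counting error only. In the fit without a filter its log2 fold change was 0.23 with a standard error of 0.50 (quasi-likelihood FDR 0.833), and it was -0.11 without WT3 and 0.75 without WT1.

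*Cd247* (ENSMUSG00000005763, chromosome 1 from 165788681 to 165877277) encodes the zeta chain, which NK cells also use. It had 27, 32 and 9 counts in wild type and 25, 31 and 20 in YAP2-5SA-∆C skin, with 1.34 ± 0.427 and 1.48 ± 0.299 CPM. The groups overlapped, and WT3 was the lowest library. The log2 fold change was 0.11 with a standard error of 0.29 and a 95% interval from -0.57 to 0.79 (quasi-likelihood FDR 0.843), and its sign turned without WT3 (-0.08) or without TG2 (-0.06). The opposite-strand gene *Pou2f1* covers 56.4% of the exon bases of *Cd247*, and the strand setting of the counting is not given in the sources used here, so this count is uncertain.

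*Zap70* (ENSMUSG00000026117, chromosome 1 from 36761798 to 36782818), the kinase recruited to the phosphorylated CD3 and zeta chains, was below the filter with 17, 9 and 4 counts in wild type and 12, 14 and 15 in YAP2-5SA-∆C skin. In CPM the range of the wild type libraries, from 0.380 to 0.933, held all but the highest transgenic value, 0.934. The ratio of the summed counts was 1.28 with an exact 95% interval from 0.781 to 2.12. In the fit without a filter its log2 fold change was 0.38 with a standard error of 0.38 (quasi-likelihood FDR 0.591), and it was 0.19 without WT2, 0.21 without WT3 and 0.87 without WT1.

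The coreceptor genes and *Cd2* had higher mean levels in YAP2-5SA-∆C skin than in wild type skin, but none was called by the quasi-likelihood test. *Cd4* and *Cd8a* mark the helper and the cytotoxic arm of alpha-beta T cells, and *Cd4* is also transcribed in some dendritic cells and macrophages. *Cd2* encodes a receptor by which T cells and NK cells hold on to cells with CD48.

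*Cd4* (ENSMUSG00000023274, chromosome 6 from 124864692 to 124888221) was the most counted of the 9 genes. It had 65, 67 and 48 counts in wild type and 75, 85 and 109 in YAP2-5SA-∆C skin. In CPM, WT3 lay above TG1, and the other transgenic libraries were above all wild type libraries. The means were 3.88 ± 0.593 and 5.31 ± 1.34 CPM (SD, n = 3), a log2 fold change of 0.47 with a standard error of 0.21, a 95% interval from -0.04 to 0.97 and a quasi-likelihood FDR of 0.218. Leaving out TG3 took the log2 fold change to 0.25.

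*Cd8a* (ENSMUSG00000053977, chromosome 6 from 71373427 to 71379173) was close to the limit of detection, with 1, 3 and 2 counts in wild type and 6, 7 and 4 in YAP2-5SA-∆C skin. All 3 transgenic libraries were above all 3 wild type libraries, an order that 15.5% of the tested genes also showed. That share is over genes past the filter, which *Cd8a* did not pass. The ratio of the summed counts, 17 and 6, adjusted for the scaled library totals, was 2.66 with an exact 95% interval from 0.999 to 8.23. In the fit without a filter on low counts, its log2 fold change was 1.36 with a standard error of 0.56 and a quasi-likelihood FDR of 0.241.

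The share of *Cd8a* in the sum of *Cd4* and *Cd8a*, in counts per kilobase of exon, was 1.68%, 4.73% and 4.42% in wild type and 8.15%, 8.37% and 3.91% in YAP2-5SA-∆C skin. TG3 fell among the wild type libraries. The difference between the means was 3.20 percentage points (two-sided exact permutation test, p = 0.3, where 3 against 3 cannot go below 0.1). In raw counts each share rested on 1 to 7 *Cd8a* counts, and the Wilson 95% interval of the highest, 7.61% in TG2, ran from 3.73% to 14.9%.

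*Cd2* (ENSMUSG00000027863, chromosome 3 from 101275899 to 101287939) had 16, 11 and 8 counts in wild type and 23, 28 and 32 in YAP2-5SA-∆C skin. The groups did not overlap in CPM, and 15.5% of all tested genes were likewise higher in every YAP2-5SA-∆C library. The means were 0.737 ± 0.153 and 1.64 ± 0.358 CPM (SD, n = 3), a fold change of 2.21, and the log2 fold change was 1.15 with a standard error of 0.28 and a 95% interval from 0.48 to 1.81. The quasi-likelihood FDR was 0.0678, and that of the likelihood-ratio test 0.00822. The gene reached 1 CPM in none of the wild type and in all 3 transgenic libraries, so it entered the test only through the group in which it was high.

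**Figure D1:**
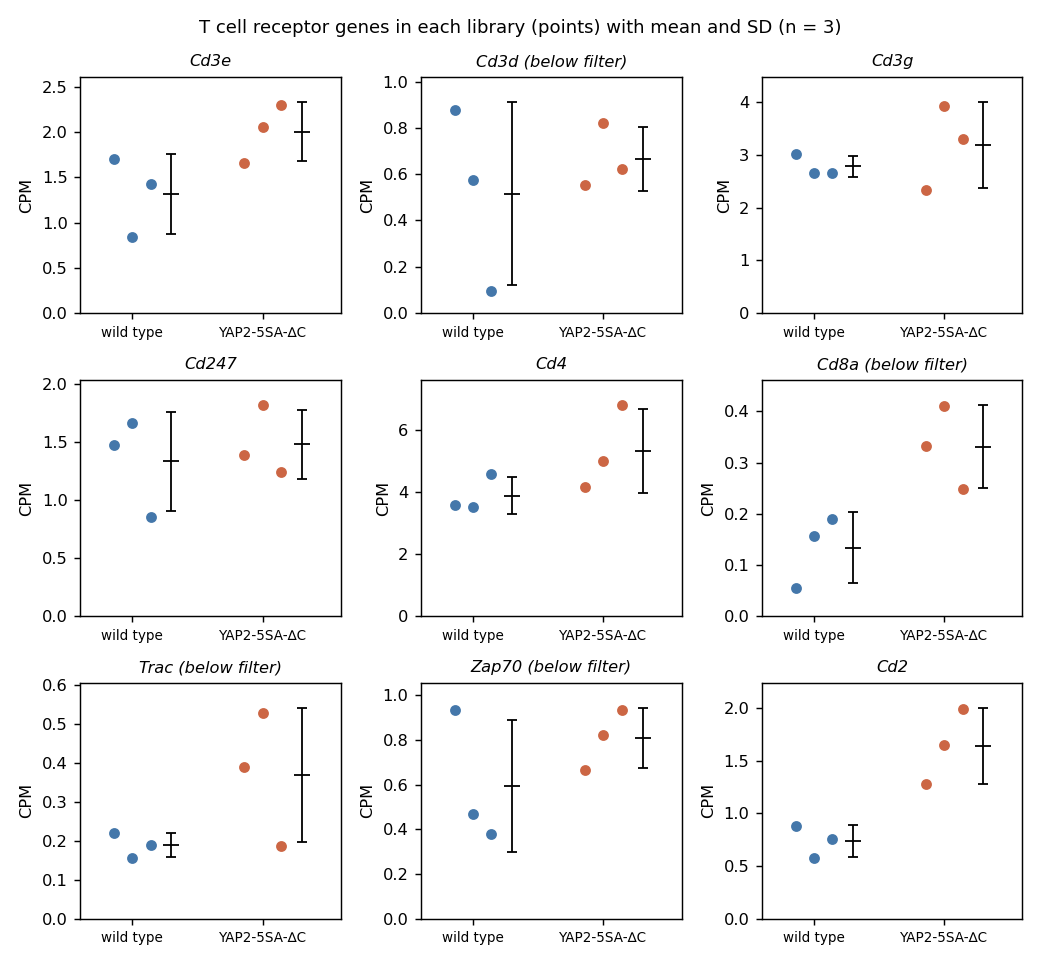
CPM (vertical axes, from 0) of the 9 receptor complex genes in each library. Blue points are wild type and orange points YAP2-5SA-∆C libraries, and the bar beside each group is its mean with SD (n = 3). The groups are apart for *Cd2* and *Cd8a*, with YAP2-5SA-∆C above, as for 15.5% of the tested genes, and overlap for the other 7 genes.

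Per kilobase of exon, the order of the levels in wild type skin was led by *Cd4* with 0.961 ± 0.147 and *Cd3g* with 0.850 ± 0.0629 CPM per kilobase, which did not differ beyond their SD. *Cd2* followed with 0.424 ± 0.0878, then *Cd3e* with 0.324 ± 0.108. *Cd3d*, *Cd247*, *Trac* and *Zap70* lay between 0.199 and 0.284 CPM per kilobase with overlapping SDs. *Cd8a* was the lowest with 0.0368 ± 0.0194. In YAP2-5SA-∆C skin *Cd4* (1.32 ± 0.333), *Cd3g* (0.975 ± 0.247) and *Cd2* (0.941 ± 0.206) led, and the SDs of neighbours among these genes overlapped. *Cd3e* followed with 0.492 ± 0.0790, outside the SD of *Cd2*, and *Cd8a* (0.0910 ± 0.0223) was again last.

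Summed over the 9 genes, the level was 12.7, 10.6 and 11.1 CPM in wild type and 12.8, 17.0 and 17.6 CPM in YAP2-5SA-∆C skin. The lowest transgenic library, TG1, nearly equalled the highest wild type library, WT1. On the log2 scale the difference between the means was 0.45, and it was 0.46 without *Cd4*. The median log2 fold change was 0.47 over the 5 tested genes and 0.48 over the 9 genes in the fit without a filter, beside a median of -0.01 over all 15102 tested genes. The median over the tested genes was 0.28 without TG2 and 0.24 without TG3, where *Cd2* was no longer tested.

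The alpha-beta and gamma-delta receptor genes themselves were next examined by locus, as the sum over the variable, diversity, joining and constant segments that are named for a locus and have a row. Sums of the alpha locus were higher in every YAP2-5SA-∆C library than in every wild type library, whereas those of the beta, gamma and delta loci overlapped. Of single genes past the filter, 15.5% showed the order of the alpha locus. *Trac* (ENSMUSG00000076928, chromosome 14 from 54220521 to 54224206), the alpha constant gene, had 4, 3 and 2 counts in wild type and 7, 9 and 3 in YAP2-5SA-∆C skin. Its groups overlapped in CPM. The ratio of the summed counts, 19 and 9, adjusted for the scaled library totals, was 1.98 with an exact 95% interval from 0.853 to 4.97.

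The alpha locus, with 48 segment genes in the table, had 13, 12 and 13 counts in wild type and 26, 29 and 37 in YAP2-5SA-∆C skin, or 0.858 ± 0.329 and 1.82 ± 0.442 CPM (SD, n = 3). *B230359F08Rik*, annotated as a variable segment within the alpha locus but not named for it, had 3 counts in WT2 and 0 in the other libraries, and with it the sum in WT2 was 15 counts and the wild type libraries reached at most 1.235 CPM, still below the lowest transgenic library at 1.443 CPM. Most of the gap was in the joining segments, which had 3, 6 and 7 counts in wild type and 11, 15 and 25 in YAP2-5SA-∆C skin, but after scaling WT3 (0.665 CPM) lay above TG1 (0.611 CPM), so their groups overlapped in CPM. After *Trac*, the segment genes with the most counts were *Traj21*, with 7 counts over all 6 libraries, and *Trav4-4-dv10*, with 6.

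The beta locus had the most counts of the 4 loci: 150, 123 and 78 in wild type and 131, 166 and 135 in YAP2-5SA-∆C skin. *Trbc2*, the constant gene that took most of them, had 120, 101 and 65 counts in wild type and 104, 135 and 94 in YAP2-5SA-∆C skin. Its log2 fold change was 0.12 with a standard error of 0.17 (quasi-likelihood FDR 0.687). *Trbc1* had 76 counts in all and *Trbj2-7* had 12. Because the beta constant genes share long stretches of identical sequence and only uniquely mapped reads were counted, their counts are uncertain.

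The gamma locus had 70, 35 and 23 counts in wild type and 40, 51 and 34 in YAP2-5SA-∆C skin. *Tcrg-C1*, its most counted constant gene, had 33, 19 and 6 counts in wild type and 13, 24 and 17 in YAP2-5SA-∆C skin, with a log2 fold change of -0.15, a standard error of 0.43 and a quasi-likelihood FDR of 0.859. Wild type libraries included both the highest and the lowest value. *Tcrg-V5*, a variable segment used by dendritic epidermal T cells, had 11, 5 and 5 counts in wild type and 9, 11 and 4 in YAP2-5SA-∆C skin. *Tcrg-C4* had 27 counts over all libraries, and *Tcrg-C1* shares 17.6% of its 75-base windows with other gamma constant genes.

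The delta locus was represented almost wholly by *Trdv4*, the variable segment of the dendritic epidermal T cell receptor. It had 19, 25 and 9 counts in wild type and 13, 25 and 15 in YAP2-5SA-∆C skin. In the fit without a filter, its log2 fold change was -0.07 with a standard error of 0.33, a 95% interval from -0.80 to 0.68 and a quasi-likelihood FDR of 0.948. The next delta segments, *Trdj2* and *Trdj1*, had 5 and 4 counts in all.

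Inside each library, gamma constant genes made up 26.6%, 18.0% and 14.8% of the summed beta and gamma constant counts in wild type, and 17.3%, 17.4% and 16.0% in YAP2-5SA-∆C skin. This share was added after seeing the data. WT1, with a Wilson 95% interval from 20.8% to 33.4%, was above the others. The difference between the means, -2.91 percentage points, did not pass (two-sided exact permutation test, p = 0.7) and was 0.50 points without that library.

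**Figure D2:**
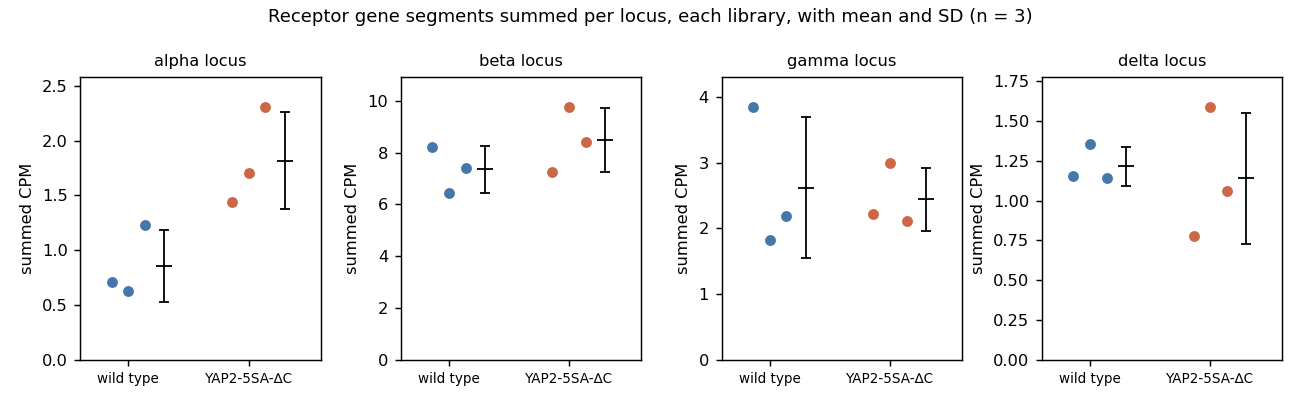
Summed CPM (vertical axes, from 0) of the receptor gene segments of each locus, with one point per library and the mean with SD (n = 3) beside each group. The alpha locus separates the genotypes, with all 3 YAP2-5SA-∆C libraries above all 3 wild type libraries, and the beta, gamma and delta loci do not. Of single tested genes, 15.5% have the order of the alpha locus.

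The wider T cell pathway was described with 5 lists of 107 genes, of which 105 had a row and 70 were tested. With the quasi-likelihood test, calls were made in the lists of proximal signalling and of costimulation, and none in those of receptor genes, transcription factors and cytokines, where the likelihood-ratio test called 0, 4 and 2 and DESeq2 called 0, 4 and 1. In the list of receptor genes, 2 of 7 were tested, *Trbc2* and *Tcrg-C1*, with 0 at an unadjusted p-value below 0.05 and 0 called by any of the tests. Of the 70 genes, 9 were called higher, where 1.44% of all tested genes were, and 1 was called lower, where 0.464% were. In 34 of the 70 all YAP2-5SA-∆C libraries were above all wild type libraries, against 15.5% of all tested genes, and in 7 they were below, against 18.3%. The median log2 fold change of the 70 was 0.47. The likelihood-ratio test called 25 of the 70 and DESeq2 called 21, where DESeq2 called 10.5% of all genes.

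These calls depended on single libraries, while the median log2 fold change stayed between 0.38 (without TG2) and 0.54 (without TG1). The quasi-likelihood count was 2 without WT1, 1 without TG1 and 12 without TG2. It was 0 without WT2, WT3 or TG3, where 35, 33 and 33 of the genes had an unadjusted p-value below 0.05. At that p-value the same fits had 2726 of all 14981, 2844 of 14999 and 3691 of 14925 genes. Over all genes the fits called 142 without WT1, 83 without TG1, 817 without TG2 and 0 without WT2, WT3 or TG3.

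In proximal signalling, 30 of 37 genes were tested, 6 were called higher and 1 lower, and the median log2 fold change was 0.31. *Ptprc* encodes CD45, the phosphatase of all leukocytes that activates the receptor kinases. It had 38.2, 36.4 and 42.7 CPM in wild type and 60.7, 57.6 and 66.3 CPM in the transgenic libraries, a log2 fold change of 0.66 with a standard error of 0.09 and a quasi-likelihood FDR of 0.034. *Vav1*, a guanine nucleotide exchange factor of blood cells, rose from 5.70 ± 0.361 to 10.3 ± 0.286 CPM (SD, n = 3; log2 fold change 0.85, quasi-likelihood FDR 0.030). *Lcp2*, which encodes the adaptor SLP-76, rose from 7.93 ± 0.790 to 12.8 ± 1.10 CPM (log2 fold change 0.68, quasi-likelihood FDR 0.0436). These genes are expressed across blood cells and not in T cells alone.

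*Fyn*, a Src family kinase found in T cells and in many other cells, keratinocytes included, fell by 0.35 on the log2 scale, from 51.7 ± 0.939 to 40.6 ± 0.263 CPM (SD, n = 3; quasi-likelihood FDR 0.0401). The call of *Fyn* was also made by voom (FDR 0.045) and DESeq2 (FDR 0.00487), and it was lost with the likelihood-ratio test (FDR 0.093) and in the fit without a filter (quasi-likelihood FDR 0.0511), where the log2 fold changes were -0.35 and -0.34. The genes of this list with the highest levels, *Plcg1*, *Nfatc3* and *Cbl*, had log2 fold changes of -0.08, 0.02 and 0.10 and were not called. *Lck*, the kinase that phosphorylates the CD3 chains and is largely restricted to T cells, was chosen after its values were seen. It had 50, 37 and 28 counts in wild type and 43, 28 and 46 in YAP2-5SA-∆C skin, with a log2 fold change of -0.08 and a standard error of 0.25 (quasi-likelihood FDR 0.865).

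The log2 ratio of the summed CD3 chains *Cd3e*, *Cd3d* and *Cd3g* to *Ptprc* was -2.77, -3.16 and -3.35 in wild type and -3.74, -3.08 and -3.41 in YAP2-5SA-∆C skin. The groups overlapped, and the difference of -0.32 did not pass (two-sided exact permutation test, p = 0.4, with 0.1 the smallest possible). It was -0.15 without WT1 or TG1 and -0.48 without TG2. With the summed macrophage markers as denominator it was -0.15 (two-sided exact permutation test, p = 0.7).

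Among genes of costimulation, adhesion and checkpoints, all 18 tested genes of 27 had a positive log2 fold change, and 3 were called higher. The median was 0.59, against -0.01 over all tested genes. The change was positive for 15 of 17 tested genes without WT1 and 13 of 15 without TG2. It was positive for all of them in the other fits without a single library. *Icos*, an inducible costimulator of activated and regulatory T cells, had 14, 23 and 9 counts in wild type and 41, 42 and 59 in YAP2-5SA-∆C skin. Its log2 fold change was 1.55 with a standard error of 0.28 and a quasi-likelihood FDR of 0.0482. *Tnfrsf9*, which encodes the activation receptor 4-1BB, had 16, 14 and 9 counts in wild type and 29, 36 and 35 in YAP2-5SA-∆C skin (log2 fold change 1.26, standard error 0.23, quasi-likelihood FDR 0.0467). Neither gene's groups overlapped, and 15.5% of all tested genes were likewise higher in every YAP2-5SA-∆C library. *Tnfrsf9* reached 1 CPM in none of the wild type libraries and *Icos* in 1, against all 3 transgenic libraries for both, so they passed the filter through the group in which they were high, and with voom both calls were lost (FDR 0.0568 for *Icos* and 0.0546 for *Tnfrsf9*).

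*Cd244a*, a receptor for CD48 on NK cells, some T cells and myeloid cells, rose from 3.07 ± 0.483 to 5.97 ± 0.231 CPM (SD, n = 3; log2 fold change 0.95, quasi-likelihood FDR 0.0401). Its ligand gene *Cd48* had 4.99 ± 0.138 and 7.36 ± 0.557 CPM and a quasi-likelihood FDR of 0.0531. *Tnfrsf18*, which encodes GITR, had a log2 fold change of 0.71 and a quasi-likelihood FDR of 0.0614. *Thy1*, a surface protein of T cells that fibroblasts also carry and that is in the fibroblast list as well, had a log2 fold change of 0.44 with a standard error of 0.21.

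None of the 13 tested transcription factors of 17 was called by the quasi-likelihood test, and their median log2 fold change was 0.22. In that test 8 of the 13 had an unadjusted p-value below 0.05, against 26.3% of all tested genes. The genes went both ways: 5 of the 13 were higher in every YAP2-5SA-∆C library and 3 were lower in every one, against 15.5% and 18.3% of all tested genes. By the other tests, 4 were called by the likelihood-ratio test, 4 by DESeq2 and 0 by voom. The highest levels were those of *Maf* (log2 fold change -0.25), *Gata3* (0.22) and *Bcl11b* (0.70), which keratinocytes or other skin cells also express. Of 7 tested cytokine, cytokine receptor and effector genes of 19, the quasi-likelihood test called 0, with 3 at an unadjusted p-value below 0.05, while the likelihood-ratio test called 2, DESeq2 called 1 and voom 0. *Il7r* and *Il2rg*, the receptor chains for IL-7 and for the common gamma chain cytokines, had log2 fold changes of 1.02 and 0.86, and *Areg*, which encodes the growth factor amphiregulin, of -0.25. *Ifng* and *Il17f* had at most 3 counts in any library, and *Il17a* and *Il22* were not analysed here.

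**Figure D3:**
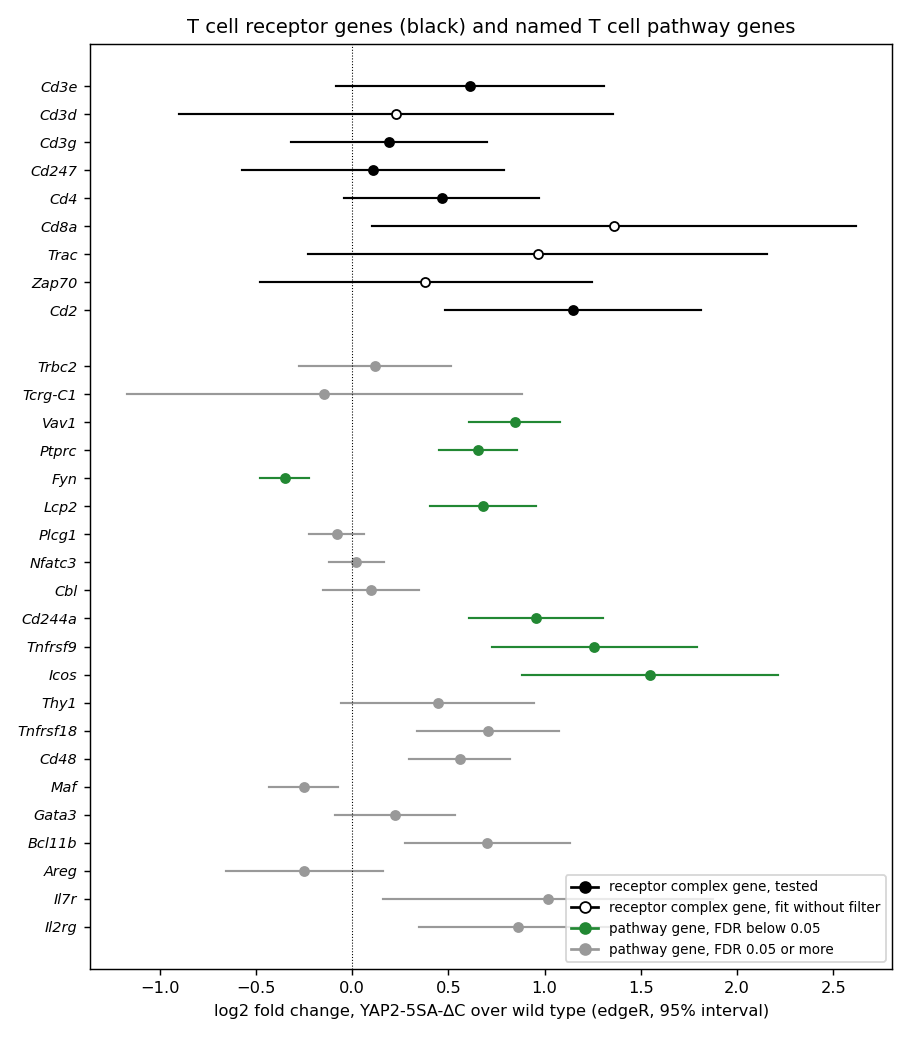
Log2 fold change of YAP2-5SA-∆C over wild type skin (horizontal axis) with its 95% interval, for the receptor complex genes (black) and the named pathway genes that were tested (green where the FDR was below 0.05, grey otherwise). Open circles come from the fit without a filter on low counts. Among the black intervals, those of *Cd2* and *Cd8a* lie wholly above 0.

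The filter left out 35 genes of the pathway lists that have a row. In the fit without a filter, added for these genes after seeing the data, 3 of the 35 were called, all higher, where 1.87% of all 26579 genes were called. They were *Foxp3*, *Cd6* and *Gzmb*, named here after their values were seen. *Foxp3* is the defining transcription factor of regulatory T cells, *Cd6* encodes a scavenger-type receptor of T cells, and *Gzmb* encodes granzyme B of cytotoxic and some other lymphocytes.

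*Foxp3* had 3, 1 and 2 counts in wild type and 23, 16 and 16 in YAP2-5SA-∆C skin. The groups were far apart, and the ratio of the summed counts, adjusted for the scaled library totals, was 8.59 with an exact 95% interval from 3.71 to 24.4. Its log2 fold change in the fit without a filter was 3.03 with a standard error of 0.43 and a quasi-likelihood FDR of 0.0211. Leaving out single libraries gave log2 fold changes from 2.59 to 3.30, and the call was kept without WT1 or TG2 and lost without any of the other 4, with quasi-likelihood FDRs up to 0.166.

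*Cd6* had 1, 1 and 0 counts in wild type and 10, 10 and 13 in YAP2-5SA-∆C skin. With 2 wild type counts in all, the ratio was 15.5 with an exact 95% interval from 3.96 to 133, and the quasi-likelihood FDR was 0.0207. *Gzmb* had 1, 3 and 1 counts in wild type and 9, 17 and 23 in YAP2-5SA-∆C skin, a ratio of 9.19 with an exact 95% interval from 3.68 to 29.5 and a quasi-likelihood FDR of 0.033. Both calls were kept without TG1 or 2 and lost without any of the other 4 libraries, while every such fit gave a positive log2 fold change (3.44 to 3.99 for *Cd6* and 2.76 to 3.67 for *Gzmb*).

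**Figure D4:**
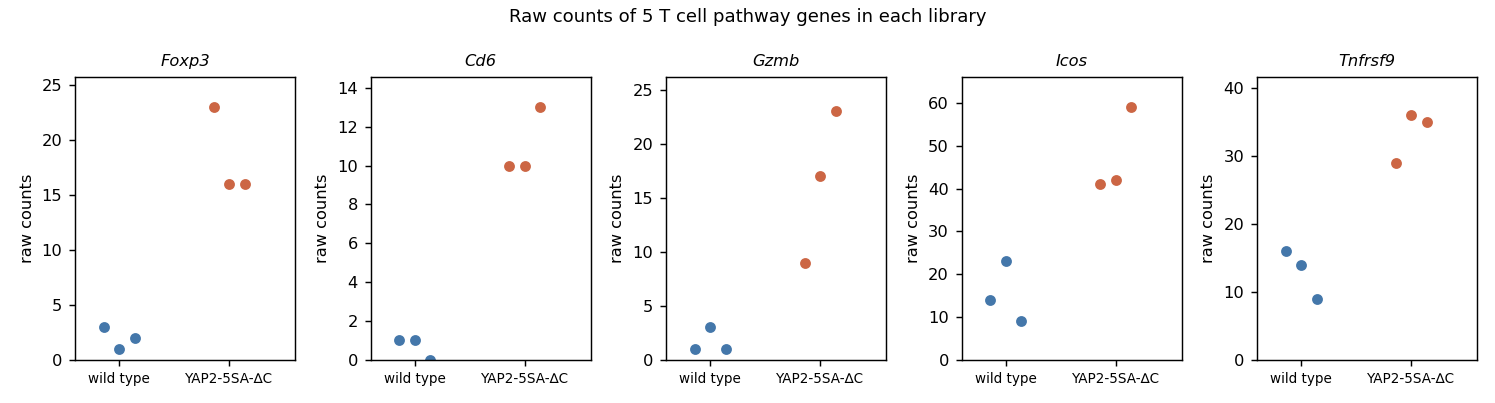
Raw counts (vertical axes, from 0) of *Foxp3*, *Cd6*, *Gzmb*, *Icos* and *Tnfrsf9* in each library, blue for wild type and orange for YAP2-5SA-∆C. For each of these genes every transgenic library is above every wild type library, at 9 to 59 counts against 0 to 23 over the 5 genes. In CPM, 15.5% of the tested genes have this order.

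Summed markers of macrophages, dendritic cells, mast cells and neutrophils were higher in every YAP2-5SA-∆C than in every wild type library, while few single markers passed the quasi-likelihood test. All 12 macrophage markers were apart in this way, an order that 15.5% of all tested genes showed, 2 were called where 1.44% of all genes were called higher, and their summed level was 554 to 679 CPM in wild type and 820 to 905 CPM in YAP2-5SA-∆C skin. Summed Langerhans and dendritic cell markers were at 422 to 497 and 586 to 687 CPM, with 3 of 10 tested genes called higher. Mast cell markers, at 160 to 179 and 212 to 261 CPM, had 2 of 7 called, and neutrophil markers, at 9.05 to 13.3 and 20.96 to 30.3 CPM, had 1 of 2. Of the 7 neutrophil markers with a row, only 3 were higher in every YAP2-5SA-∆C library, and *Ngp*, *Camp* and *Ltf* had at most 10 counts in any library. The counts of called markers were not stable: with the replicate block and without WT2, WT3 or TG3 all 4 lists had 0 calls, as all genes had, and without TG2 they had 5, 4, 3 and 2. Without WT1 the counts were 0, 2, 1 and 0, and without TG1 they were 2, 0, 4 and 0. In the fits without a single library, the median log2 fold changes of the 4 lists ran from 0.45 to 0.59, 0.49 to 0.71, 0.53 to 0.72 and 1.17 to 1.45. With upper-quartile factors 4 macrophage, 4 dendritic and 4 mast cell markers were called, where 416 of all 15102 genes were called. In the same order of lists, the likelihood-ratio test called 7, 6, 6 and 2 markers and DESeq2 called 9, 6, 5 and 2. Their part in the results on *Ptprc*, *Vav1*, *Lcp2* and the other genes shared with these cells was not tested.

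Of the NK and innate lymphoid markers, 1 of 4 tested genes was called by the quasi-likelihood test, *Tyrobp*, where 1.44% of all genes were called higher. The likelihood-ratio test called 3 of the 4 and DESeq2 called 2, where they called 10.4% and 10.5% of all genes. The summed level was 24.6 to 29.1 CPM in wild type and 44.3 to 46.2 CPM in YAP2-5SA-∆C skin, and most of it came from *Tyrobp* and *Fcer1g*, which myeloid cells also express, at 24.5 and 40.4 CPM on average. Of the genes coding for NK receptors, *Ncr1*, *Klrb1c*, *Klre1*, *Klra1* and *Klra4* had at most 5 counts in any library, and their sums overlapped at 0.285 to 0.658 CPM in wild type and 0.352 to 0.611 CPM in YAP2-5SA-∆C skin. In the fit without a filter their log2 fold changes ran from -0.82 to -0.06. *Klrd1* and *Klrk1*, which some T cells also express, were higher in every YAP2-5SA-∆C than in every wild type library, as were 15.5% of all tested genes. Their log2 fold changes were 1.19 and 0.57, with quasi-likelihood FDRs of 0.0611 and 0.128. *Klrd1*, at 10, 12 and 4 against 23, 20 and 20 counts, reached 1 CPM in the transgenic libraries alone. The part of NK cells in the levels of *Cd2*, *Cd247*, *Zap70* and *Gzmb* was not tested. B cell markers were at 14.8 to 20.6 and 17.3 to 19.8 CPM, with *Ms4a1* at 0 counts in all wild type and at most 3 in the other libraries, and the 1 tested gene was not called by any of the tests.

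Markers of the other skin cells also differed between libraries. Basal keratinocyte markers were at 4363 to 5286 CPM in wild type and 6915 to 8664 CPM in YAP2-5SA-∆C skin, with 1 of 8 called, *Krt14*, where 1.44% of all genes were called higher, and with 3 called by the likelihood-ratio test and 5 by DESeq2. Fibroblast markers were at 9671 to 13030 and 12490 to 16240 CPM, and adipocyte markers at 1114 to 1367 and 969 to 1475 CPM. Skeletal muscle markers varied most, at 1370, 6664 and 5482 CPM in wild type and 3392, 2172 and 1319 CPM in YAP2-5SA-∆C skin. The part of these cells in the levels of the receptor genes was not tested.

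**Figure D5:**
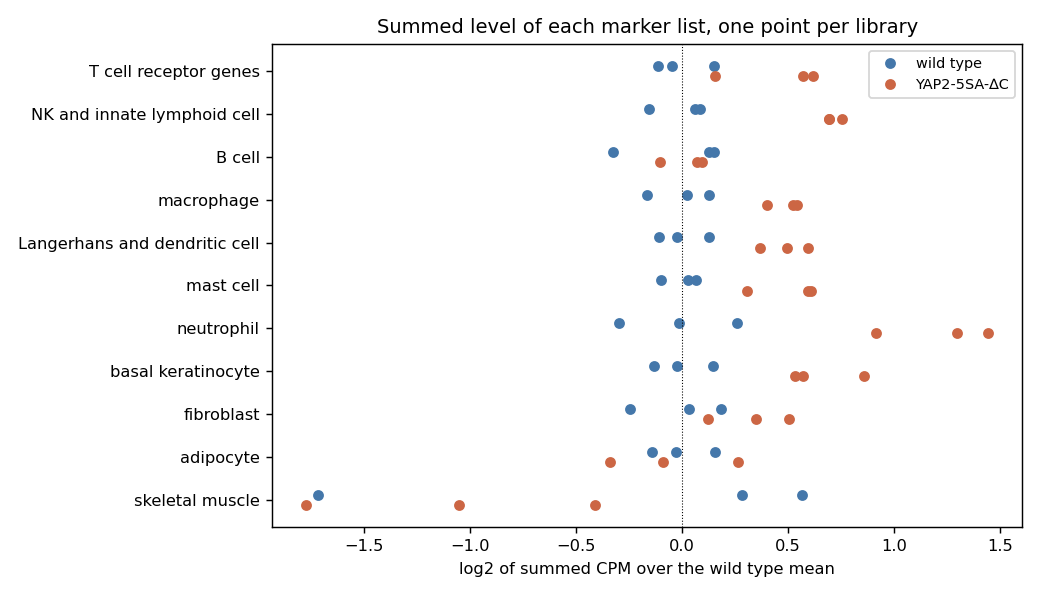
Log2 of the summed CPM of each marker list over its wild type mean (horizontal axis), with one point per library, blue for wild type and orange for YAP2-5SA-∆C. The NK, macrophage, dendritic cell, mast cell, neutrophil and basal keratinocyte sums are apart between genotypes, the NK sum being mostly *Tyrobp* and *Fcer1g*, the receptor genes nearly touch at 12.7 and 12.8 CPM, and the B cell, fibroblast, adipocyte and muscle sums overlap.

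The tested genes whose pattern over the 6 libraries was most like the mean of *Cd3e* and *Cd3g* were *Cgas*, *Prrx2*, *Cd209a*, *Reep6* and *Irx5*. The root-mean-square difference of their centred log2 CPM values from that mean was 0.065 to 0.080, and their mean levels were 4.14 to 14.8 CPM. The centred values of the CD3 chains were 0.06, -0.49 and -0.15 in wild type and -0.13, 0.37 and 0.33 in YAP2-5SA-∆C skin, so WT2 was the lowest library and TG2 and TG3 were the highest.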

How the data were processed

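RNA-Seq was carried out by the authors on whole dorsal neck skin of 6 mice, 3 per genotype. Per the labels and the study's methods, reads were mapped to GRCm38 with Tophat2 (2.0.12 in the submitters' processing notes) and Bowtie2 2.1.0, and uniquely mapped reads were counted per Ensembl gene with HTSeq-count, so the deposited values are raw counts. The annotation release and strand setting are not given in the sources used here, and the sources name both an mRNA and a stranded total RNA preparation. All columns were assigned to a mouse by name.

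A filter of 1 CPM or more in 3 or more samples, after the study's methods, was applied here to the deposited table and left 15102 genes, and the remaining genes were scaled by TMM and tested with the quasi-likelihood test (glmQLFit, glmQLFTest) of edgeR 4.0.16 in R 4.3.3, with genotype as the only term and Benjamini-Hochberg adjustment over all genes tested (FDR, threshold 0.05). CPM values use TMM-scaled totals. The likelihood-ratio test, voom (limma 3.58.1), DESeq2 1.42.0, other scalings and filters, a block on the replicate number and fits without single libraries were alternatives. Ratios of summed counts are divided by the ratio of the TMM-scaled totals of the groups. Shares have Wilson intervals and these ratios have intervals from the exact binomial distribution, and both cover counting error only. Nothing in the labels says more of the replicates than that each is a separate mouse sample.

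Gene names, positions and exon lengths came from GENCODE M21, in which 558 of the 26579 identifiers are absent. Promoter sequences were matched in RefSeq for 6 of the 10 genes. The 9 genes with a row were named with their values, as were, from each pathway list, up to 4 genes past the threshold by p-value and the 3 with the highest mean CPM, the 3 most counted segments per receptor locus, and the 5 genes most like the CD3 chains. The genes and lists were chosen with earlier results of these data known. The planned share of *Trdc* in *Trac* plus *Trdc* was not computed.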

Additional observations from a re-analysis of the deposited data

How the results depend on the processing

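The count of receptor complex genes past the threshold was 0 in the quasi-likelihood test under each scaling, filter and left-out library, 0 with voom and with DESeq2, and 1 (*Cd2*) with the likelihood-ratio test. For the pathway lists the count was 10 of 70 in the quasi-likelihood test, 25 with the likelihood-ratio test, 21 with DESeq2, and between 0 and 12 when single libraries were left out. Over all genes, 288 calls became 1568 with the likelihood-ratio test, 1590 with DESeq2 and between 0 and 817 when single libraries were left out. The log2 fold change of *Cd247* ran from -0.078 to 0.29 when single libraries were left out, and the gamma share from -5.41 to 0.50 percentage points. *Cd2* fell below the filter whenever a YAP2-5SA-∆C library was left out and has no value there. The calls of *Foxp3*, *Cd6* and *Gzmb* came to between 0 and 3 when single libraries were left out. The cause of these changes was not tested. The *Trdc* share and its alternatives were not run.

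The labels give both genotypes replicate numbers 1 to 3. With the replicate block the count was 0 of 5 receptor complex genes and 0 of 70 pathway genes, as it was 0 of all 15102 genes. At an unadjusted quasi-likelihood p-value below 0.05 that fit had 34 of the 70 and 2949 of all 15102 genes. The correlations of same-numbered deviations were -0.332, -0.228 and -0.0501. With 3 mice per genotype they cannot show whether same-numbered mice shared a litter or a batch, and the labels do not say. None of these 5 receptor complex genes changed sign under the block, and their median log2 fold change was 0.44.

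Depth limits the receptor genes: 4 of the 9 had under 1 CPM in all libraries, and a difference such as that of *Cd8a*, on 23 counts in all, is known only within its counting interval.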
